A study of Mus musculus with 6 samples.

Results

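The interferon-stimulated effector genes examined here are 42 named mouse genes of the 52636 genes in the count table, and they were taken by symbol from a list of interferon-stimulated genes. All 42 symbols were found in the table. Genes of antigen presentation and of interferon signalling itself were kept off the list, and the signalling genes are described separately as 58 other genes of the interferon pathway. The genes were measured by RNAseq in cultured J110 and SSM3 cells, with 3 biological replicates of each line. J110 is a mammary tumour line from mice carrying a transgene in which the MMTV LTR, a viral promoter active in mammary epithelium, drives AIB1 cDNA. SSM3 is a mammary tumour line from 129SvEv mice. No treatment is named for either line, but they were kept in different media, with different serum and CO2 levels, so line and culture conditions cannot be told apart. The mouse strain behind J110 is not given in the sources used here, so strain and line cannot be told apart either. Each line is a single line rather than a set of independent tumours.

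Interferons are secreted proteins that cells release on viral infection or when nucleic acid appears in the cytosol. Type I and type III interferons bind their receptors and, through the kinases JAK1 and TYK2, assemble a complex that includes STAT2 and IRF9 and binds the interferon-stimulated response element, whereas type II interferon (IFN-gamma) acts mainly through the gamma activated sequence. The effector genes switched on in this way block viral entry, detect or degrade viral RNA, attach the ubiquitin-like protein ISG15 to other proteins, or attack the vacuoles in which microbes live. Many of them are also expressed at a low level in the absence of added interferon.

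The promoters of several members are shown because they carry the sequence that this pathway reads, in members that turned out to be nearly silent as well as in members that differed strongly between the lines. Sequences are from RefSeq (build GRCm38.p6), written 5′ to 3′ on the gene's strand, with each copy of GAAA, any 2 bases, GAAA, on either strand, in capitals. On the other strand the motif reads TTTC, any 2 bases, TTTC. The first 4 are members with at most 3 counts in every library, namely Ifit1 (chr19:34640765-34640833, plus strand), Ifit3 (chr19:34583353-34583436, plus strand), Oas1a (chr5:120907526-120907565, minus strand) and Rsad2 (chr12:26456543-26456592, minus strand). In all 4 the motif lies upstream of the annotated transcription start, first beginning 104 bases before it in Ifit1, 156 in Ifit3, 20 in Oas1a and 120 in Rsad2.
Ifit1: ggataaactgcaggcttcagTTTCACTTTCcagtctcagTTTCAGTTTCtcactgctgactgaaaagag
Ifit3: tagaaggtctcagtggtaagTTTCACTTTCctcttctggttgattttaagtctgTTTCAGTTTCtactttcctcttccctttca
Oas1a: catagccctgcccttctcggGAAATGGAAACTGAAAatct
Rsad2: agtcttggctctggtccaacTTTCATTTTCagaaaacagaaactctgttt

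The next 4 come from members that were higher in SSM3 cells, namely Isg15 (chr4:156200855-156200916, minus strand), Bst2 (chr8:71537567-71537622, minus strand), Igtp (chr11:58199502-58199551, plus strand) and Ifitm3. Isg15 holds 3 overlapping copies, the first beginning 78 bases before its start, and Bst2 holds 2, the first 130 bases before. The single copy of Igtp begins 34 bases before the start. In Ifitm3 (chr7:141010714-141010743, minus strand) the 2 copies begin at base 3 and base 20 of the first exon.
Isg15: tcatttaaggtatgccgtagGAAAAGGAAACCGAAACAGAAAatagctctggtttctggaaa
Bst2: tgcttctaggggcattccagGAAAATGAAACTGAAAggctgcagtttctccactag
Igtp: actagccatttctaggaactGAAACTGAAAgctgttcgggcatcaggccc
Ifitm3: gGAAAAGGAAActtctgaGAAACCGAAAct

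The last pair comes from Irgm1 (chr11:48871421-48871470, minus strand), which did not pass the test of the difference, and Eif2ak2 (chr17:78882535-78882564, minus strand), which was lower in SSM3 cells. Irgm1 holds 2 overlapping copies, the first beginning 30 bases before the RefSeq start. That position lies inside the gene as GENCODE places it (chr11:48861968-48871683). Eif2ak2 holds a single copy that begins at base 19 of the first exon.
Irgm1: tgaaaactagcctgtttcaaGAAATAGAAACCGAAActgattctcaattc
Eif2ak2: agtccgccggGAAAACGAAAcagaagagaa

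RefSeq promoter windows, which run from 250 bases before to 50 bases after a gene's start, were found for 32 of the 42 members. Those without a window are Usp18, Oas2, Mx1, Mx2, Dhx58, Iigp1, Parp9, Parp14, Zbp1 and Rtp4. The motif was present in 17 of the 32 (53.1%) and in 1079 of 27025 RefSeq genes with a window (3.99%). Among genes that could be tested for expression in these cells, 311 of 9105 (3.42%) held it. The share was 55% (11 of 20) in members detected in both lines and 57.1% (4 of 7) in members at the floor in both, and 1 of 4 members at the floor in SSM3 only held it. These groups are small and their shares were not tested against each other. It was present in 8 of the 13 members called higher in SSM3 cells that have a window and in 1 of 4 called lower. The gamma activated sequence TTCNNNGAA, which is its own reverse complement, was present in 10 of the 32 members (31.2%) and in 9.55% of all genes. It was also present in 18 of 52 other genes of the interferon pathway (34.6%) and in 6 of 47 other interferon-stimulated genes (12.8%). It overlapped a copy of the first motif in Bst2, Ifitm3 and Shisa5. A match of letters is not evidence that a protein binds there, and binding was not measured.

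**Figure D1:**
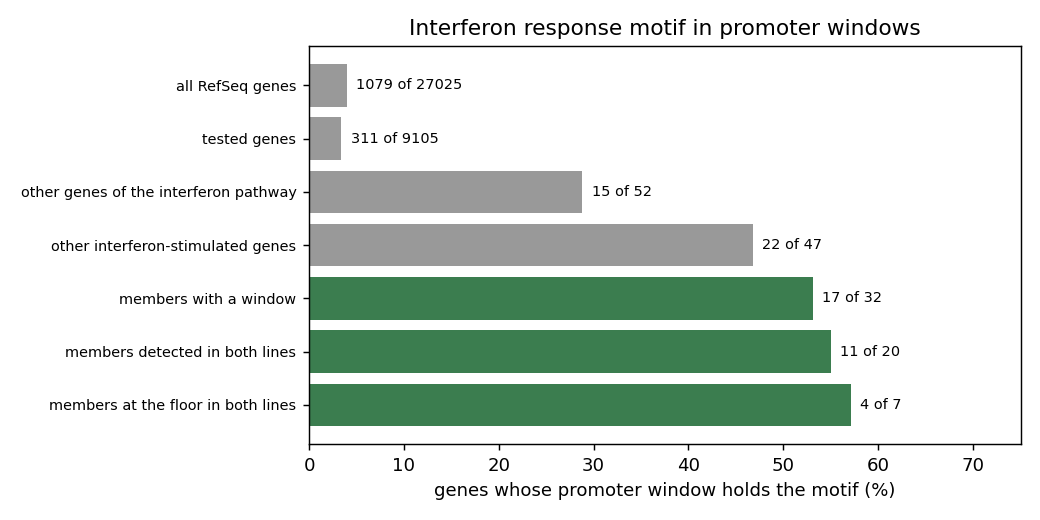
Percentage of genes (x axis) whose promoter window holds GAAA, any 2 bases, GAAA on either strand, with the number of genes beside each bar. Grey bars are comparison groups and green bars are members. The members with a window stand at 53.1%, against 3.99% of all RefSeq genes, and the silent members at 57.1%.

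The libraries were made with a kit that reads the 3′ end of polyadenylated RNA, so a count is the number of reads at the end of a gene's transcripts. Total counts were 5209740 to 5416305 in the libraries labelled J110 and 4200785 to 4792941 in those labelled SSM3. A count of 3 is 0.578 to 0.668 CPM (counts scaled to a common library size with the TMM method), and a member was called at the floor in a line when it had at most 3 counts in every library of that line. Genes of the ribosomal RNA locus took 15.1 to 17.2% of the counts in J110 libraries and 0.779 to 1.27% in SSM3 libraries. Low counts on genes that are high only in the other line were widespread in J110 replicate 3 (58 of 66 such genes, at 0.328% of the SSM3 level) and SSM3 replicate 2 (46 of 46, at 0.396% of the J110 level), and lower elsewhere, at 0.0944 to 0.162%. In the tests below every gene with enough counts was fitted together in edgeR, and p-values were adjusted over all 12284 genes tested.

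The lines differed at most genes. At a threshold of 0.05 on the adjusted p, 77.9% of all genes tested were called, 38.6% as higher in SSM3 cells and 39.2% as lower, and the libraries of the lines did not overlap for 79.6%. A called difference of at least 4-fold was found for 10% in the higher and 11.7% in the lower direction. Against this background, 26 of the 42 members passed the filter on low counts and were tested, 19 were higher in SSM3 cells, 4 were lower, 3 were not called and the other 16 did not pass it. Of the members called higher, 15 differed by at least 4-fold, and of those called lower, 3 did. The libraries of the lines did not overlap for 24 of the members tested, and their median log2 fold change was 2.15, compared with -0.01 over all genes. The median was 0.76 over the 16 members with at least 10 counts in every library and 1.31 when all 42 were fitted. The members that were tested are not a fair sample of the 42. Ifitm3, Rtp4, Bst2, Igtp, Gbp7, Iigp1, Zbp1 and Oasl1 were under the filter level of 2 CPM in every library of one line, so they passed only through the line in which they were high and had to differ.

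By detection the 42 members fell into 4 classes. Counts above the floor were found in both lines for 24 members, in SSM3 cells only for 5 and in J110 cells only for 4, and 9 members were at the floor in both. None had 0 counts in all 6 libraries. The summed level of the 42 members was 485.8, 449.2 and 459.3 CPM in the J110 libraries and 954, 1035 and 1081 CPM in the SSM3 libraries. The number of members above the floor was nearly the same in each library, at 26, 25 and 26 in J110 and 28, 28 and 27 in SSM3. Much of the gap in the summed level lay in Ifitm3 and Iigp1. Without them the sums were 485.1, 448.6 and 457.9 CPM in J110 and 651.8, 696.1 and 709.8 CPM in SSM3 libraries. In bulk samples of this kind, fewer expressing cells and less RNA in each cell cannot be told apart.

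**Figure D2:**
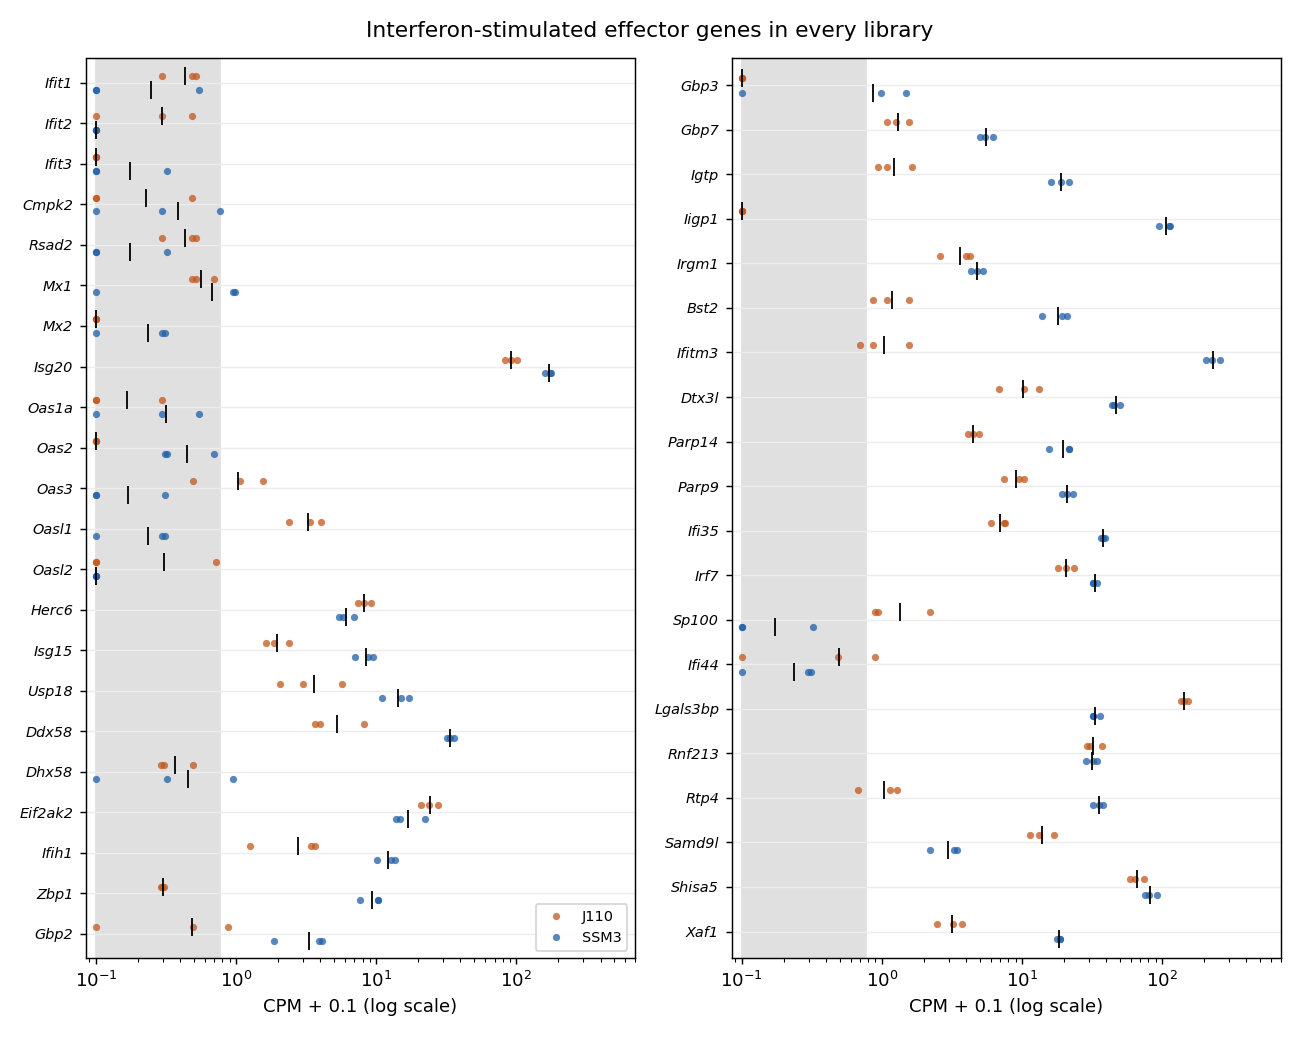
CPM plus 0.1 on a log axis for each of the 42 members in every library, J110 in orange and SSM3 in blue, with a vertical bar at each line's mean and grey shading over the range of the floor. Ifitm3 and Iigp1 are the members furthest to the right of J110 in SSM3 cells, and the IFIT genes lie in the grey range in both lines.

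The IFIT genes were nearly silent in both lines. IFIT1, IFIT2 and IFIT3 bind viral RNA through tetratricopeptide repeats, and their genes lie together within 99.3 kb of chromosome 19 (chr19:34550694-34650009). Ifit1 had 2, 1 and 2 counts in J110 libraries and 2, 0 and 0 in SSM3 libraries. Ifit2 had 2, 1 and 0 counts against 0, 0 and 0, and Ifit3 had a single count in SSM3 replicate 1. No library therefore had more than 2 counts at any gene of this cluster. The neighbouring genes Rsad2 and Cmpk2 on chromosome 12 were also at the floor (chr12:26442746-26479837). Viperin, the product of Rsad2, makes a chain-terminating nucleotide from CTP, and Cmpk2 encodes a nucleotide kinase. Rsad2 had 2, 1 and 2 counts in J110 and 1, 0 and 0 in SSM3 libraries, and Cmpk2 had 2, 0 and 0 against 3, 0 and 1.

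The MX proteins are dynamin-like GTPases that trap viral nucleocapsids, and their genes span 113.9 kb of chromosome 16 (chr16:97447035-97560900). Mx2 had no count in J110 libraries and 0, 1 and 1 in SSM3 libraries. Mx1 had 2, 3 and 2 counts in J110 libraries and 4, 4 and 0 in SSM3 libraries, which places it at the floor in J110 only by a margin of 1 count. Differences among these members were not detectable at this depth.

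The OAS family was split. OAS enzymes make 2′-5′ oligoadenylate on double-stranded RNA, which activates RNase L, and the OASL proteins are relatives that do not activate it in the same way. Oas1a had 0, 1 and 0 counts in J110 libraries and 2, 0 and 1 in SSM3 libraries. Oas2 had no count in J110 libraries and 1, 1 and 3 in SSM3 libraries, and Oasl2 had 0, 0 and 3 against no count, so all 3 were at the floor in both lines. Oasl1, which restrains translation of IRF7 in mouse cells, was the member of this family with most counts. It had 17, 20 and 11 counts in J110 libraries and 0, 1 and 1 in SSM3 libraries, so the lines did not overlap. The J110 level was 22.7 times that of SSM3 (95% exact interval 5.95 to 193, counting error only) and the adjusted p was 7.63e-06. Oas3 had 5, 2 and 7 counts in J110 and 0, 1 and 0 in SSM3 libraries, a ratio of 13.2 (2.02 to 560), and did not pass the filter on low counts. Oas1a, Oas2 and Oas3 lie within 177.2 kb (chr5:120730333-120907521), and Oasl1 and Oasl2 within 41.0 kb elsewhere on that chromosome (chr5:114896936-114937915).

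Isg20 was grouped with this family as an exonuclease that degrades single-stranded RNA. It was well expressed in both lines, with 527, 462 and 398 counts in J110 libraries and 715, 831 and 876 in SSM3 libraries. Its mean level was 92.0 ± 9.29 CPM in J110 and 170.0 ± 9.40 CPM in SSM3 cells (SD, n = 3), a log2 fold change of 0.88 (SE 0.089, adjusted p = 1.29e-07).

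Both membrane restriction factors were far higher in SSM3 cells. IFITM3 sits in endosomal membranes and blocks fusion of incoming viruses. Ifitm3 had 4, 3 and 7 counts in J110 libraries and 928, 1066 and 1293 counts in SSM3 libraries. Its mean level was 0.942 ± 0.458 CPM in J110 and 230.1 ± 25.5 CPM in SSM3 cells (SD, n = 3), and the log2 fold change was 7.91 (SE 0.185, adjusted p = 1.24e-15). The J110 level was 0.409% of the SSM3 level. By library it was 0.335%, 0.258% and 0.635% of the SSM3 mean. Genes that are high only in SSM3 cells stood at 0.129%, 0.115% and 0.328% in these libraries. Those genes were chosen for at least 100 CPM in every SSM3 library and a J110 mean under 0.5% of the SSM3 mean. Ifitm3 meets this rule, so it is among the genes it is set against. The comparison therefore cannot tell whether its few J110 counts came from J110 cells. The 3 genes Ifitm1, Ifitm2 and Ifitm3 lie within 55.9 kb (chr7:140954837-141010770), and the neighbours are not members. Ifitm1 was lower in SSM3 cells, with a log2 fold change of -2.62 (SE 0.233, adjusted p = 2.62e-08), and Ifitm2 was higher, with a log2 fold change of 0.76 (SE 0.104, adjusted p = 4.48e-06). Tetherin, the product of Bst2, holds budding virions at the cell surface. Bst2 had 4, 5 and 7 counts in J110 libraries and 86, 65 and 105 in SSM3 libraries, with no overlap and a log2 fold change of 4.05 (SE 0.302, adjusted p = 2.97e-09).

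The GTPases of cell-autonomous immunity were also far apart, but not uniformly. The immunity-related GTPases and the guanylate-binding proteins assemble on the vacuoles of intracellular microbes. Iigp1, which encodes an effector GTPase that attacks the membrane of the parasite's vacuole, had no count in any J110 library and 429, 529 and 575 counts in SSM3 libraries, or 107.4 ± 10.4 CPM (SD, n = 3). Against a floor of 3 counts per library it was at least 172-fold higher in SSM3 cells (adjusted p = 9.81e-14). Igtp, a regulatory GTPase of the same family, had 8, 5 and 4 counts in J110 and 72, 101 and 95 in SSM3 libraries, with a log2 fold change of 4.03 (SE 0.277, adjusted p = 1.08e-09). It shares 162 exonic bases with Irgm2 on the same strand, so its count is uncertain to that extent. Irgm1, another regulator of the family, did not move with these. Its counts were 20, 21 and 12 in J110 and 21, 20 and 26 in SSM3 libraries, and its log2 fold change of 0.42 (SE 0.281, adjusted p = 0.186) did not pass the test. Irgm1 has the same motif upstream of its RefSeq start as Igtp, though in Irgm1 that position lies inside the gene as GENCODE places it.

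Guanylate-binding proteins were represented by 3 members that lie within 107.7 kb of chromosome 3 (chr3:142530342-142638008). All 3 had their highest counts in SSM3 libraries, but at low levels. Gbp7 had 6, 5 and 7 counts in J110 and 22, 29 and 27 in SSM3 libraries, a log2 fold change of 2.17 (SE 0.324, adjusted p = 1.23e-05). Gbp2 had 4, 2 and 0 against 8, 18 and 20 counts, a ratio of 8.1 (3.45 to 23.2, counting error only), and did not pass the filter on low counts. Gbp3 had no count in J110 libraries and 4, 0 and 7 in SSM3 libraries.

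Sensors of foreign nucleic acid differed in both directions. RIG-I (Ddx58) and MDA5 (Ifih1) detect viral RNA in the cytosol and signal through MAVS. Ddx58 had 20, 41 and 17 counts in J110 libraries and 144, 168 and 168 in SSM3 libraries, with mean levels of 5.17 ± 2.55 and 33.7 ± 1.82 CPM (SD, n = 3) and a log2 fold change of 2.70 (SE 0.218, adjusted p = 8.09e-09). Ifih1 had 6, 18 and 16 against 45, 60 and 68 counts, with a log2 fold change of 2.18 (SE 0.301, adjusted p = 5.32e-06). Neither gene overlapped between the lines. The third RIG-I-like receptor, LGP2 (Dhx58), which modulates the other two, stayed near the floor, with 1, 2 and 1 counts in J110 and 1, 4 and 0 in SSM3 libraries. ZBP1 recognises Z-form nucleic acid and can start necroptosis. Zbp1 had 1 count in each J110 library and 34, 48 and 51 in SSM3 libraries, a ratio of 46.8 (15.7 to 230, counting error only, adjusted p = 6.12e-09).

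PKR, the product of Eif2ak2, halts translation on binding double-stranded RNA, and its gene went the other way. Eif2ak2 had 108, 139 and 113 counts in J110 libraries and 66, 105 and 69 in SSM3 libraries. Its log2 fold change was -0.50 (SE 0.182, adjusted p = 0.019), and the normalised levels of the lines overlapped. The call was lost when the fit used library size only (adjusted p = 0.118), and when J110 replicate 2 (0.0997), SSM3 replicate 1 (0.0698) or SSM3 replicate 3 (0.0662) was left out.

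The PARP9-DTX3L axis was higher in SSM3 cells throughout. PARP9 and the ubiquitin ligase DTX3L act as a complex, and PARP14 is a mono-ADP-ribosyltransferase encoded beside them within 139.7 kb of chromosome 16 (chr16:35832874-35972605). Dtx3l had 68, 34 and 49 counts in J110 and 205, 208 and 251 in SSM3 libraries, a log2 fold change of 2.21 (SE 0.174, adjusted p = 5.96e-09). Parp14 had 21, 22 and 23 against 70, 102 and 109 counts, with a log2 fold change of 2.16 (SE 0.21, adjusted p = 8.11e-08). Parp9 had 38, 48 and 49 against 93, 90 and 115 counts, a smaller log2 fold change of 1.22 (SE 0.173, adjusted p = 7.32e-06). No library of one line reached the other line's range at any of the 3 genes. Dtx3l and Parp9 share 458 exonic bases on opposite strands, and the strand setting of the counting is not given in the sources used here.

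In the ISG15 system the modifier and its protease were higher in SSM3 cells and the ligase was not. ISG15 is a ubiquitin-like modifier, USP18 removes it and also restrains the type I receptor, and HERC6 is the main ligase that attaches it in mouse cells. Isg15 had 8, 9 and 11 counts in J110 libraries and 39, 33 and 47 in SSM3 libraries, a log2 fold change of 2.15 (SE 0.284, adjusted p = 3.2e-06). Usp18 had 15, 10 and 27 against 49, 80 and 75 counts, with a log2 fold change of 2.04 (SE 0.298, adjusted p = 1e-05). Herc6 had 42, 46 and 35 counts in J110 and 31, 27 and 27 in SSM3 libraries. The lines did not overlap at Herc6, but its log2 fold change of -0.45 (SE 0.223, adjusted p = 0.077) did not pass the test. It shares 1269 exonic bases with Gm45193 on the same strand.

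Of the 3 transcriptional regulators among the members, Irf7 and Ifi35 were tested and were higher in SSM3 cells. IRF7 amplifies the production of type I interferon. Irf7 had 122, 104 and 86 counts in J110 and 145, 162 and 161 in SSM3 libraries, a log2 fold change of 0.67 (SE 0.133, adjusted p = 2.45e-04), and it shares 45 exonic bases with Phrf1 on the opposite strand. Ifi35, which encodes a leucine zipper protein that partners NMI, had 39, 30 and 35 counts in J110 libraries and 165, 177 and 196 in SSM3 libraries, with a log2 fold change of 2.45 (SE 0.152, adjusted p = 2.85e-10). Among members at or above 10 CPM in SSM3 cells it had the lowest coefficient of variation there, 3.02%. Sp100, a component of nuclear bodies, had 11, 4 and 4 counts in J110 and 1, 0 and 0 in SSM3 libraries, a ratio of 18 of J110 over SSM3 (2.86 to 747, counting error only), and did not pass the filter on low counts.

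Of the remaining effectors, Rtp4 and Xaf1 were higher in SSM3 cells by a wide margin. RTP4 is a transmembrane chaperone that also restrains flavivirus replication. Rtp4 had 3, 6 and 5 counts in J110 libraries and 170, 152 and 178 in SSM3 libraries, or 0.936 ± 0.318 and 35.2 ± 2.80 CPM (SD, n = 3), with a log2 fold change of 5.20 (SE 0.235, adjusted p = 4.5e-12). Xaf1, which encodes an antagonist of the apoptosis inhibitor XIAP, had 19, 12 and 15 against 84, 88 and 89 counts, a log2 fold change of 2.58 (SE 0.215, adjusted p = 1.2e-08). Shisa5, a gene for an endoplasmic reticulum protein linked to apoptosis, was nearly level. It had 388, 300 and 305 counts in J110 and 338, 380 and 461 in SSM3 libraries, a log2 fold change of 0.33 (SE 0.105, adjusted p = 0.0098), and the call was lost without J110 replicate 2 (adjusted p = 0.0676). Ifi44 was close to the floor, with 2, 4 and 0 counts against 0, 1 and 1.

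Samd9l and Lgals3bp were clearly lower in SSM3 cells. SAMD9L restricts poxviruses and inhibits translation. Samd9l had 59, 66 and 81 counts in J110 libraries and 15, 10 and 16 in SSM3 libraries, a log2 fold change of -2.24 (SE 0.259, adjusted p = 6.82e-07). Lgals3bp encodes a secreted glycoprotein that binds galectins. It had 794, 689 and 688 counts in J110 libraries and 161, 150 and 162 in SSM3 libraries, with mean levels of 144.3 ± 8.42 and 33.3 ± 2.21 CPM (SD, n = 3) and a log2 fold change of -2.12 (SE 0.0935, adjusted p = 3.37e-12). Neither gene overlapped between the lines. Rnf213, a giant ubiquitin ligase that coats intracellular bacteria, had 150, 154 and 178 counts in J110 and 129, 161 and 160 in SSM3 libraries. Its log2 fold change was -0.02 (SE 0.13, adjusted p = 0.876), the lines overlapped, and the sign turned under some of the alternatives.

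**Figure D3:**
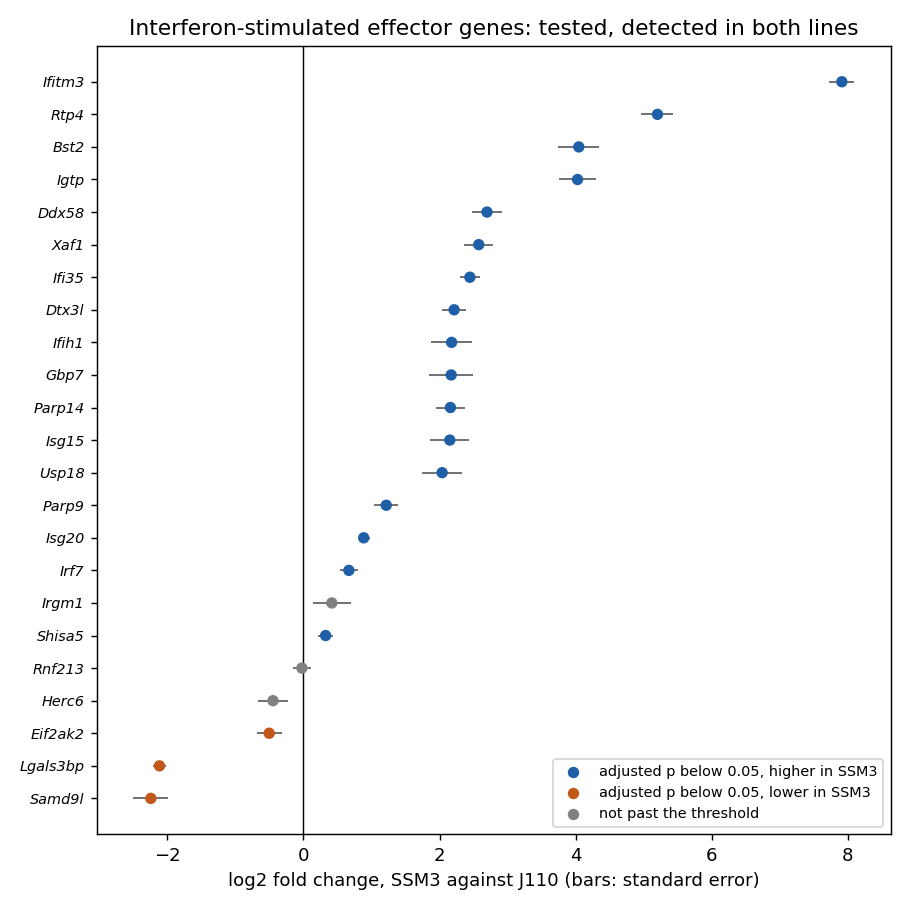
Log2 fold change of SSM3 against J110 (x axis) with its standard error for the members that were tested and detected in both lines. Values run from -2.24 (Samd9l) to 7.91 (Ifitm3), with blue and orange for members called higher and lower and grey for Irgm1, Rnf213 and Herc6, which were not called.

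The ligands that start the response were not detected above the floor. All 20 listed genes of type I and type III interferons were at the floor in both lines, and 18 of them had no count in any library. Ifna13 had 1, 1 and 0 counts in J110 libraries, and Ifnz had 1 count in J110 replicate 1 and 1 in SSM3 replicate 2. Ifng, the type II ligand, had no count. A 3′ count of polyadenylated RNA does not measure interferon protein in the medium.

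Of the 6 receptor genes, 3 were called lower in SSM3 cells and 0 were called higher, where 39.2% and 38.6% of all genes were. The type I receptor chain Ifnar1 had 39, 52 and 57 counts in J110 and 19, 18 and 17 in SSM3 libraries, a log2 fold change of -1.37 (SE 0.254, adjusted p = 1.16e-04). Ifngr1, the ligand-binding chain for IFN-gamma, had 158, 185 and 117 against 22, 24 and 21 counts, with a log2 fold change of -2.69 (SE 0.2, adjusted p = 2.91e-09). The type III receptor chain Ifnlr1 was lower by 0.79 on the log2 scale (SE 0.229, adjusted p = 0.00509). Ifnar2, Ifngr2 (J110 18.5 ± 0.483, SSM3 24.5 ± 7.30 CPM, SD, n = 3) and Il10rb (J110 11.6 ± 1.87, SSM3 14.8 ± 2.08 CPM) did not pass the test.

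The kinases and transcription factors that carry the signal were mixed. Jak2, which serves the IFN-gamma and many cytokine receptors, had 160, 165 and 156 counts in J110 libraries and 1669, 1965 and 1971 in SSM3 libraries (log2 fold change 3.62, SE 0.0865, adjusted p = 1.53e-15). Jak1 was lower by 0.83 on the log2 scale (SE 0.0769, adjusted p = 4.73e-08) and Tyk2 was not called. Of the 8 listed transcription factors, 7 were tested, 5 were higher in SSM3 cells and 1 was lower, where 38.6% and 39.2% of all genes were. The untested factor, Irf8, had 16, 14 and 8 counts in J110 libraries and none in SSM3 libraries. Stat2 had 17, 33 and 28 counts in J110 and 137, 157 and 160 in SSM3 libraries, a log2 fold change of 2.61 (SE 0.193, adjusted p = 2.7e-09). Irf9, its DNA-binding partner, had 56, 59 and 59 against 280, 250 and 310 counts, with a log2 fold change of 2.35 (SE 0.128, adjusted p = 5.4e-11), and shares 123 exonic bases with Rnf31 on the same strand. Stat3, which responds mainly to cytokines of the IL-6 family, was higher by a log2 fold change of 2.71 (SE 0.0865, adjusted p = 5.3e-14).

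The transgene gave no check of which line is which, and the names of the lines rest on the labels. Ncoa3, the mouse gene for AIB1, had 110, 106 and 102 counts in J110 and 181, 199 and 186 in SSM3 libraries. It was higher in the libraries labelled SSM3, the line without the transgene by its description, with a log2 fold change of 0.91 (SE 0.12, adjusted p = 2.94e-06). Ncoa3 shares 154 exonic bases with Sulf2 on the opposite strand, which had 4020 counts in all against 884, so its counts are uncertain to that extent. The 3′ end of the transgene transcript is not given in the sources used here.

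Inhibitors of signalling were also mixed, with 2 higher, 3 lower and 1 not called of 6. Ptpn6, which encodes the phosphatase SHP-1, had 8, 6 and 5 counts in J110 and 146, 130 and 139 in SSM3 libraries, a log2 fold change of 4.50 (SE 0.228, adjusted p = 2.02e-11). Of the 14 genes of nucleic acid sensing that are not members, 12 were tested, 6 were higher, 3 were lower and 3 were not called. Cgas and Ifi204 were lower in SSM3 cells. They, with Socs1 and Ptpn6, were under the filter level of 2 CPM in every library of one line, so they passed only through the other line and had to differ. Cgas, which makes the messenger cGAMP on cytosolic DNA, had 75, 58 and 75 counts in J110 libraries and 1, 2 and 0 in SSM3 libraries, so the J110 level was 65.6 times that of SSM3 (22.1 to 321, counting error only, adjusted p = 2.83e-09). Ifi204, a gene of the same DNA-sensing branch, had 56, 87 and 79 against 2, 1 and 1 counts (log2 fold change -5.59, SE 0.413, adjusted p = 2.61e-09). The adaptor Tmem173 (STING), which acts downstream of cGAMP, was not called. Over the whole pathway list, 34 of 58 genes were tested, 14 were higher and 11 lower in SSM3 cells. The share called, 73.5%, is near the 77.9% of all genes, with 41.2% higher and 32.4% lower.

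**Figure D4:**
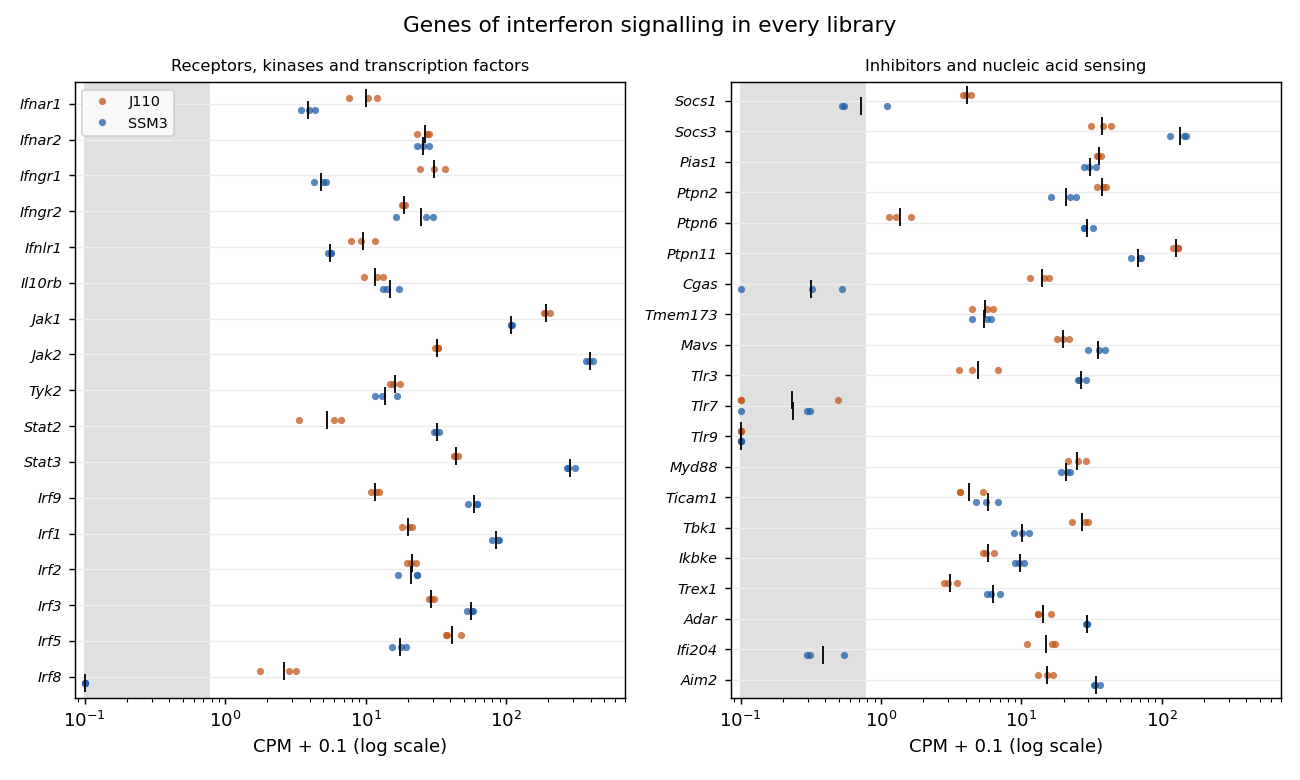
CPM plus 0.1 on a log axis for receptors, kinases and transcription factors (left) and for inhibitors and genes of nucleic acid sensing (right) in every library, J110 in orange and SSM3 in blue, with bars at the means and grey over the range of the floor. Jak2, Stat2, Stat3 and Irf9 lie to the right in SSM3 cells, and Cgas and Ifi204 fall to the floor there.

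Replicates were close for the members that were well expressed. Among members with a mean of at least 10 CPM in a line, the coefficient of variation between replicates had a median of 13.6% in J110 libraries (8 members, 5.84% for Lgals3bp to 31.9% for Dtx3l) and 9.06% in SSM3 libraries (19 members, 3.02% for Ifi35 to 27.7% for Eif2ak2).

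Some markers of cell types differed between the lines and others did not. They are given beside the members, since some effector genes are strongly expressed in leukocytes. Of 11 leukocyte markers, 7 were at the floor in both lines, the summed level was 48.8 to 65.3 CPM in J110 and 20.1 to 26.3 CPM in SSM3 libraries, and the defining marker Ptprc had 2 counts in SSM3 replicate 2 and none elsewhere. Adgre1, Itgam and Itgax had no count. Other markers of the list were detected, namely Csf1r with 64, 82 and 69 counts in J110 and 61, 73 and 68 in SSM3 libraries, Cd68 with 115, 95 and 70 against 9, 5 and 6, and Cd14 with 119, 141 and 94 against 45, 44 and 27. Lyz2 had 6, 10 and 0 counts in J110 libraries and none in SSM3 libraries. Csf1r shares 873 exonic bases with Hmgxb3 on the opposite strand, which had 420 counts in all against 417, so its counts are uncertain. The summed endothelial level was 158.4 to 180.7 CPM in J110 and 0 to 0.425 CPM in SSM3 libraries, nearly all of it Cdh5. Fibroblast markers were low in both lines, at 1.54 to 1.98 and 0.445 to 1.91 CPM. Epithelial markers summed to 2664 to 2756 CPM in J110 and 4877 to 5380 CPM in SSM3 libraries. Krt8 and Krt18 were detected in both, but Epcam had 2, 1 and 7 counts in J110 against 2376, 2404 and 2412 in SSM3 libraries, and Cdh1 21, 11 and 28 against 6019, 6369 and 7179. The part of these differences in lineage markers in the levels of the interferon-stimulated genes was not tested.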

How the data were processed

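The deposited file holds raw gene counts with no normalisation. The submitters' processing notes name bcl2fastq 2.17.1.14, cutadapt 2.1, HISAT2 2.0.4, featureCounts of Subread 2.0.0, R 4.1.0, limma 3.48.3 and edgeR 3.34.0, and the mm10 genome. The strand setting of the counting, and its treatment of reads on overlapping genes, are not given in the sources used here. The reference genome is of another mouse strain than 129SvEv, and the effect of strain variants on mapping within gene families was not tested. Of the gene identifiers, 52489 (99.72%) matched GENCODE M21, which gave symbols and coordinates. Of the 42 members, 15 share exonic bases with another counted gene.

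Groups were taken from the sample labels. After a filter on low counts (filterByExpr) and TMM scaling, differences were tested by quasi-likelihood in edgeR 4.0.16 (R 4.3.3, limma 3.58.1), with Benjamini-Hochberg adjustment over all 12284 genes tested and a threshold of 0.05. The standard error is the size of the log2 fold change divided by the square root of F. Over all genes the median log2 fold change was -0.0144, and 0.161 with library size only. Ratios of counts carry exact (Clopper-Pearson) 95% intervals, which cover counting error only.

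Members, gene lists and motifs were chosen with earlier results of these data known. The lists hold 58 matched genes of interferon signalling, 61 matched further interferon-stimulated genes (1 listed symbol was not matched) and markers of 4 cell types. Counts in every library were to be given for members with a mean of at least 10 CPM, members called lower and members at the floor in exactly one line, with the 4 next by count as examples. Of the pathway list, Stat2, Irf9, ligands, receptors and the 3 largest called changes in each direction were to be named. Isg15, Herc6, Irgm1, Gbp2, Gbp7, the floor members, and Ifitm1, Ifitm2, Jak1 and Tmem173 were chosen for naming after values were seen. In the self-test on simulated counts, 176 of 200 changed genes (88%) were recovered, and 6.88% of the 189 genes called were unchanged. The simulation changed only 200 of 12284 genes, whereas 77.9% were called in the data, so these rates do not carry over directly. Alternatives covered DESeq2 1.42.0, limma-voom, scalings, filters, thresholds, floors, the replicate number as a block, genes that share exons, and leaving out libraries. Replicates differed by more than sampling noise (chi-square per degree of freedom 2.21 to 5.62). Some items, which include a detail of the origin of SSM3 cells, are not reported here, and the counts over lists leave them out. The other cell lines of the study were not analysed here.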

Additional observations from a re-analysis of the deposited data

How the results depend on the processing

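Of the 26 members tested, 20 kept their direction and their side of the threshold under every alternative that gave them a value, and 10 of the 26 had none with at least 10 counts required in every library. Members called higher in SSM3 cells numbered 19 under DESeq2, limma-voom, other scalings and the replicate block, and 19 to 20 when single libraries were left out. They numbered 10 with at least 10 counts required in every library, which tests only 16 members, and 11 when members that share exons were left out, which also left 2 called lower in place of 4. Called lower were 3 to 4 when single libraries were left out. A test for a change beyond 2-fold called 4272 of all genes and 13 pathway genes, in place of 9566 and 25, and it ended the calls of Isg20, Parp9, Irf7, Shisa5 and Eif2ak2. Members at the floor in both lines numbered 14 with at most 10 counts in every library and 5 with at most 3 counts over the 3 libraries of a line. Testing every gene with a count brought all 42 members into the fit, with 21 called higher and 6 lower. In that fit 11123 of 22592 genes were called, 5434 of them higher. Some members that the filter on low counts left out were called there. The log2 fold change of Rnf213 was 0.15 with library size only, 0.032 without both libraries with widespread low counts, and -0.108 to 0.080 when single libraries were left out, none of them past the threshold. The call of Eif2ak2 was lost under 5 alternatives and that of Shisa5 under 3, including the fit without both libraries with widespread low counts (adjusted p = 0.0648). The cause of these changes was not tested, except where fewer genes or members enter by construction. Same-numbered libraries of the lines did not deviate together over all genes (correlations 0.0118 to 0.0268). This cannot show whether they were prepared together, and the labels do not say. With the replicate block 9481 genes were called, and the block changed no call of a member. The longer motif with a C after it was found in 40.6% of members with a window.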

Other observations

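Other interferon-stimulated genes, outside the 42 members, were also compared. Of 61 such genes, 27 were tested, 15 were higher and 9 lower in SSM3 cells and 3 were not called, and 24 were at the floor in both lines. The share of those tested that was called was 88.9%, against 77.9% of all genes, with 55.6% higher and 33.3% lower. Plac8, Sp140, Oas1c and Slfn2 were under the filter level of 2 CPM in every J110 library, so they passed only through SSM3 libraries and had to differ. Plac8, which encodes a cysteine-rich protein of placenta and leukocytes, had 0, 2 and 2 counts in J110 and 281, 236 and 273 in SSM3 libraries (log2 fold change 7.58, SE 0.296, adjusted p = 6.65e-13 in edgeR). Ifi47, an immunity-related GTPase, had 18, 21 and 21 against 277, 278 and 341 counts, a log2 fold change of 3.97 (SE 0.153, adjusted p = 5.63e-13). Sp140, a nuclear body protein related to Sp100, had 2, 2 and 3 against 25, 27 and 40 counts, with a log2 fold change of 3.72 (SE 0.399, adjusted p = 2.73e-07). Its relative Sp100 had more counts in J110 libraries.

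In the other direction, Ifi203, a gene of the interferon-inducible p200 family as is Ifi204, had 296, 292 and 248 counts in J110 libraries and 5, 13 and 10 in SSM3 libraries (log2 fold change -4.80, SE 0.2, adjusted p = 1.53e-12). Tdrd7, a tudor domain gene, had 165, 158 and 140 against 15, 21 and 3 counts, a log2 fold change of -3.47 (SE 0.287, adjusted p = 1.08e-08). Slfn9, a schlafen gene, had 91, 55 and 76 against 12, 12 and 8 counts, with a log2 fold change of -2.70 (SE 0.282, adjusted p = 2e-07). The promoter motif was present in 22 of 47 of these genes with a window (46.8%) and in 15 of 52 pathway genes (28.8%).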
